A study of Mus musculus with 18 samples.

Results

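The 48 genes described here encode the machinery that copies DNA in S phase and the factors that start it. They were taken as a named list, and each was represented by the probe set that carries its symbol alone; where a gene had several, the one with the highest mean over 18 arrays was used. All 48 had a probe set, out of 19938 gene symbols on the array, and 4 of them (Pcna, Rpa3, Tk1 and Slbp) had several. The arrays hold RNA of natural killer (NK) cells from the spleens of ICR mice aged 6 weeks, labelled "male or female", with the genotype Runx3 +/+ (WT) or Runx3 -/- (KO); Runx3 is a Runt family transcription factor. Every mouse, WT or KO, had been injected 2 times, 2 days apart, with IL15/Ra complexes (interleukin-15 carried by the alpha chain of its receptor), a signal that makes NK cells divide, so no group shows the genes without that signal. NKp46+ cells were sorted into CD27+CD11b- cells (CD27, immature), CD27+CD11b+ cells (DP, mature) and CD27-CD11b+ cells (CD11b, mature), which gave 6 groups of 3 arrays. The series was made to find genes that Runx3 regulates.

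A cell about to divide first licenses its replication origins: the origin recognition complex, Cdc6 and Cdt1 load the ring of Mcm2 to Mcm7 onto DNA. In S phase Cdc7 kinase, Mcm10, Cdc45 and the GINS complex turn that ring into a moving helicase, and primase and the polymerases copy both strands behind it. Many of these genes are silent in resting cells and are switched on together by E2F transcription factors when a lymphocyte enters the cycle; genes of mitosis follow later, largely through other promoter elements.

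Since E2F factors are known regulators of such genes, promoter stretches that hold an E2F-type sequence are shown for 6 genes that load the helicase, build it or prime DNA. Promoter windows of 300 bases (250 before and 50 after a transcript start, RefSeq, GRCm38.p6) were found for 40 of the 48 genes, in 47 windows. The letters searched on both strands were TTTCCCGC, TTTCGCGC, TTTGCCGC and TTTGGCGC. Capitals mark the matches, which can overlap each other, and each stretch is written 5' to 3' on the strand of its gene.

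Orc1 (chr4:108579407-108579453, plus strand): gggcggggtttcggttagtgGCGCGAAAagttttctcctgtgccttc
Cdc6 (chr11:98907993-98908040, plus strand): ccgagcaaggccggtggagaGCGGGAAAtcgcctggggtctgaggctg
Mcm5 (chr8:75109336-75109387, plus strand): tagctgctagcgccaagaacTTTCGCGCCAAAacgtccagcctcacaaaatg
Mcm6 (chr1:128359725-128359835, minus strand): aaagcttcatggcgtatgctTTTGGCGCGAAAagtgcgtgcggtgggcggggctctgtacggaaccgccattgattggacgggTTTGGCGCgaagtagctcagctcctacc
Gins3 (chr8:95633498-95633545, plus strand): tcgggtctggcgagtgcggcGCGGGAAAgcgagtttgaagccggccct
Pola1 (chrX:93632266-93632313, minus strand): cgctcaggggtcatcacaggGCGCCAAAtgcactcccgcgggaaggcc

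At least 1 of these spellings lay in 14 of the 47 windows (29.8%), against 2.26% of 32851 windows of all genes. Promoters of 38 other replication genes held a match in 39.1% of their windows, and those of 31 mitotic genes in 3.03%. The CCAAT box, a general promoter element, was present in 55.3% of the replication gene windows, 75.8% of the mitotic windows and 37.4% of all windows. For the CHR element of mitotic promoters, TTTGAA, the shares were 14.9%, 75.8% and 17.9%. Orc1 and Gins3 carry their match within 50 bases before the start, at 27 and 41 bases, and Cdc6 and Pola1 carry theirs at 138 bases. In Mcm5 and at the first site of Mcm6, a match on either strand overlaps another. A match is a description of these letters and does not show binding.

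All values below are log2 expression values as deposited, so a difference of 1 is a doubling. The array medians over all probe sets lay between 6.27 and 6.35. Precision is limited by the number of arrays. Markers of NK cells averaged 12.65 to 13.11 on all arrays, and Runx3 was at 11.39 to 11.85 on WT arrays and 10.73 to 11.46 on KO arrays. Xist was at 12.48 to 13.004 on the arrays of WT replicates 2 and 3 and KO replicate 3 in every subset, and at 5.13 to 5.69 on the other 9 arrays. Whether same-numbered arrays stem from 1 animal or pool is not said in the labels, so the spread behind the p-values may be technical or shared. In sorted bulk RNA, fewer cycling cells and less RNA per cycling cell cannot be told apart.

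One replicate stood apart before any comparison. The arrays labelled KO replicate 3 (ko3) carried most of the replication genes far above the other 15 arrays, in all 3 subsets. Of the 48 genes, 48 were highest of the 6 arrays of the subset on KO replicate 3 in CD27 cells, 48 in DP cells and 47 in CD11b cells, where 16.3%, 18.7% and 16.2% of all 35399 probe sets were. The gap to the next highest array was over 1 log2 for 35, 36 and 31 of the 48, against 1.22%, 1.13% and 1.89% of all probe sets. Highest in all 3 subsets at once were 47 of 48 (97.9%), against 6.92% of 21789 probe sets with 1 symbol. The exception was Rpa2, a subunit of the single-strand binding complex. Every comparison of KO with WT is therefore given with all arrays and without the 3 arrays of KO replicate 3.

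**Figure D1:**
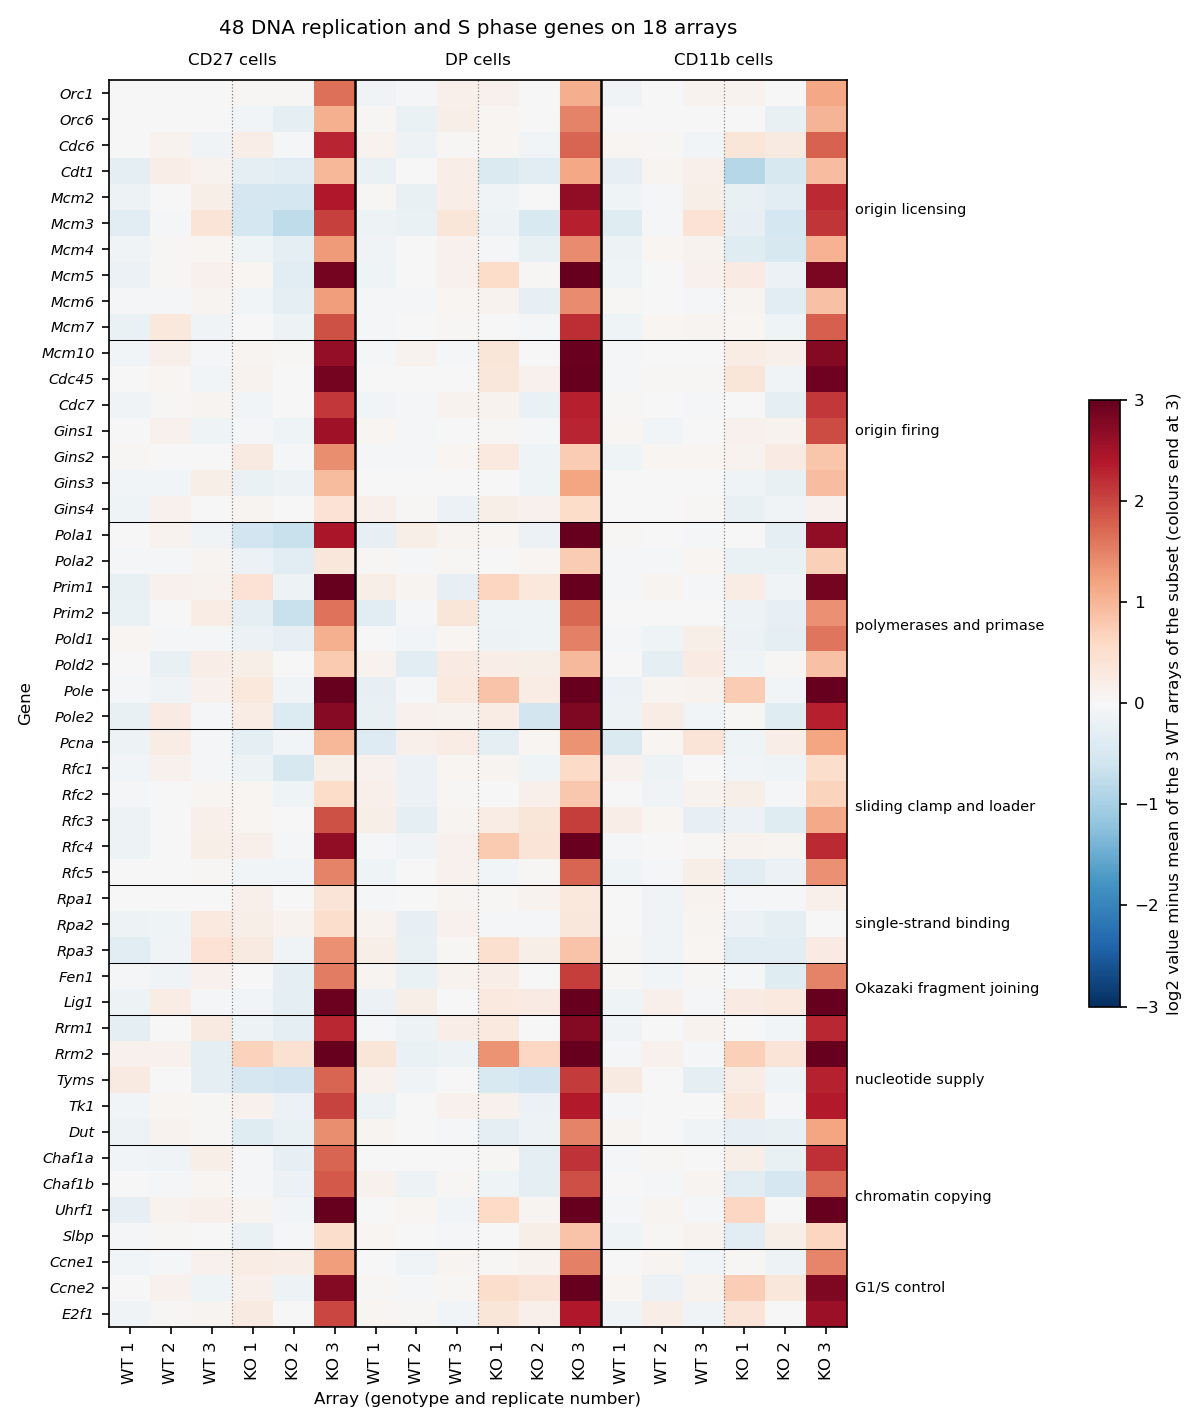
Heat map of the 48 genes (rows, by role) on the 18 arrays (columns, by subset, genotype and replicate number), as log2 value minus the mean of the 3 WT arrays of the subset; colours end at 3 on either side. KO replicate 3 is the highest of the 6 arrays of the subset in all 3 subsets for 47 of 48 genes, by little for some (Gins4 in CD11b cells is at 0.13). The median over the 48 genes is 1.65 to 1.99 on KO replicate 3 and -0.15 to 0.07 on KO replicates 1 and 2.

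Markers of other cells were also higher on the arrays of KO replicate 3, to an unequal extent in the 3 subsets. In CD11b cells 13 of 14 neutrophil markers were over 1 log2 above the WT mean there, and their mean level was 9.40 against 5.12 to 5.27 on all arrays outside KO replicate 3. On the same array 8 of 11 markers of dendritic cells and MHC class II, 5 of 8 mast cell and basophil markers, 4 of 13 macrophage markers, 3 of 6 plasma cell markers, 3 of 10 B cell markers, 3 of 11 T cell markers and 1 of 7 erythroid markers passed that mark. In CD27 cells 1 of 14 neutrophil markers did, the granule enzyme Mpo at 6.38, and the list averaged 5.13, within the range of the other arrays. Other lists with a marker past that mark there were dendritic cell (3 of 11), erythroid (2 of 7), mast cell (2 of 8), B cell (1 of 10) and T cell (1 of 11). The T cell list as a whole averaged -0.32 against the WT mean on that array. In DP cells Mpo was at 8.04 and the neutrophil list at 5.46, and 5 of 11 dendritic cell, 2 of 8 mast cell, 1 of 7 erythroid and 1 of 10 B cell markers passed. The replication genes on the same arrays were above the WT mean by 1.79 on average in CD27 cells, by 2.00 in DP cells and by 1.72 in CD11b cells. Mast cell and basophil markers were above it there by 0.80, 0.72 and 1.199 on average in CD27, DP and CD11b cells, dendritic cell markers by 0.59, 1.03 and 3.43, and erythroid markers by 1.30, 0.41 and 1.002. The part of other cells in these levels was not tested.

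**Figure D2:**
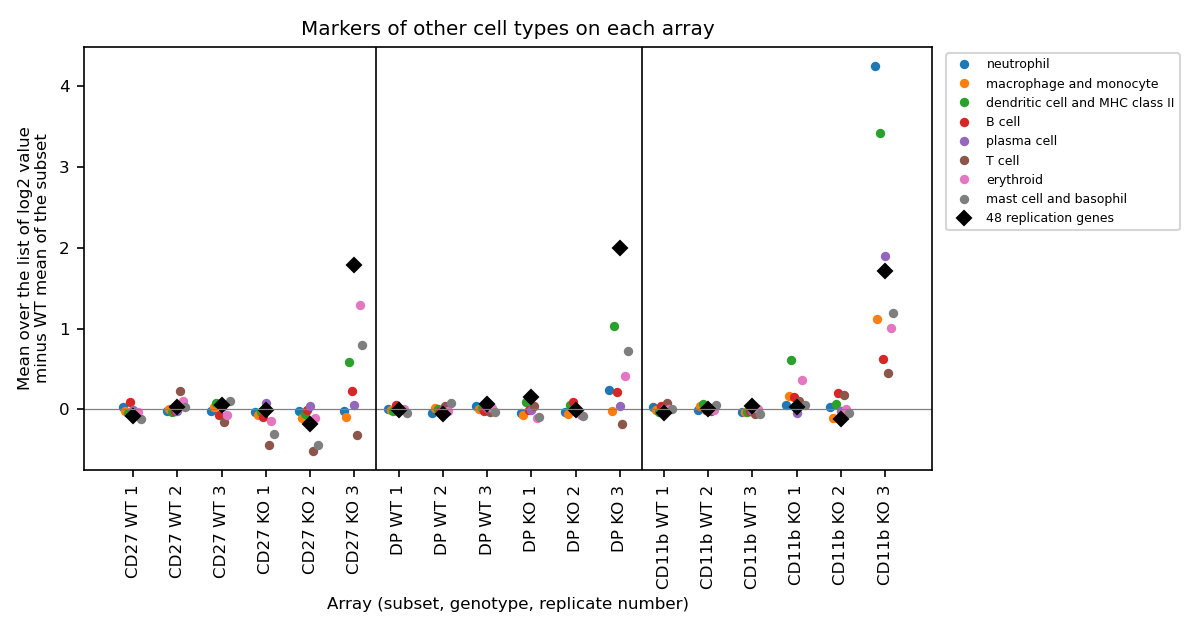
For each array (x axis: subset, genotype, replicate number), the mean over a marker list of log2 value minus the WT mean of the subset, by cell type (coloured points) and for the 48 replication genes (diamonds). On KO replicate 3 of CD11b and CD27 cells neutrophil markers are at 4.25 and -0.02, dendritic cell markers at 3.43 and 0.59, mast cell markers at 1.199 and 0.80 and erythroid markers at 1.002 and 1.30, and the replication genes are at 1.72 and 1.79.

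The excess of KO replicate 3 over the mean of KO replicates 1 and 2, averaged over the 3 subsets, had a median of 1.82 log2 over the 48 genes and ran from 0.26 (Rpa1) to 3.67 (Rrm2). The median over all probe sets with 1 symbol was -0.04. These excesses are a description of 1 replicate and carry no test. By role, the medians were 2.46 for the pair that joins Okazaki fragments, 2.39 for nucleotide supply, 2.30 for polymerases and primase, 2.24 for origin firing, 2.13 for G1/S control, 2.09 for chromatin copying, 1.65 for origin licensing, 1.45 for the sliding clamp and its loader and 0.34 for single-strand binding. Within most roles the genes differed widely, and the order of the genes was alike in the 3 subsets (Pearson's r over 48 genes 0.96, 0.93 and 0.98 for pairs of subsets, given with no test because the arrays share a replicate).

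**Figure D3:**
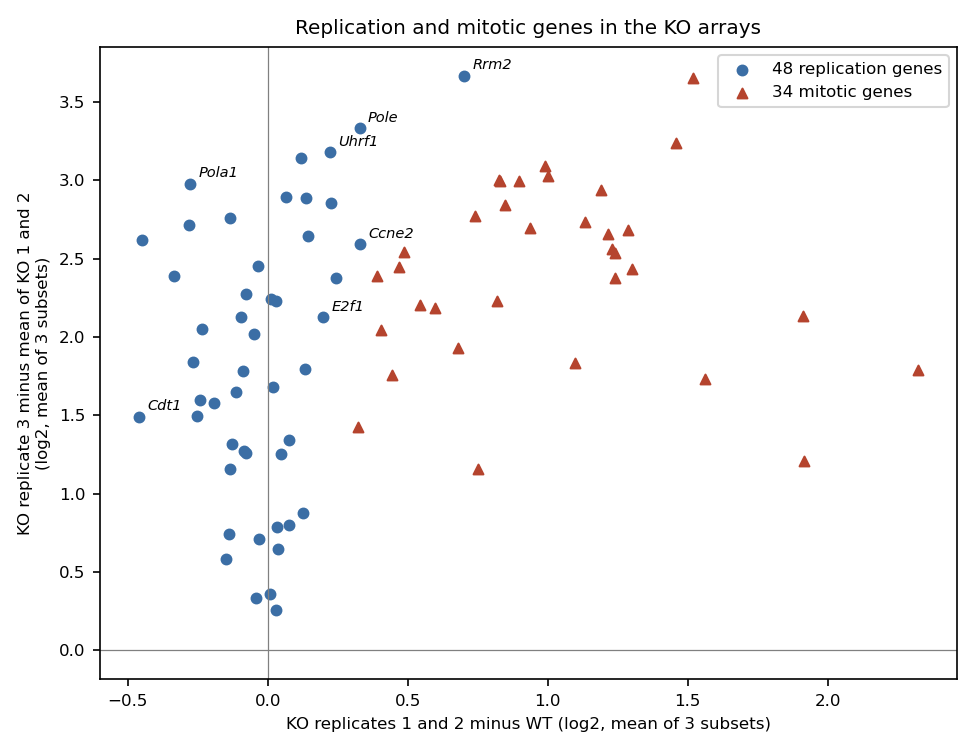
Each circle is 1 of the 48 replication genes and each triangle 1 of 34 mitotic genes; the x axis is the difference of KO replicates 1 and 2 from WT and the y axis the excess of KO replicate 3 over KO replicates 1 and 2, both in log2 and averaged over the 3 subsets. The circles lie on both sides of 0 on the x axis and all above 0 on the y axis; among them Rrm2 is highest on both, at 0.70 and 3.67.

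Among the licensing genes, Mcm5, a subunit of the helicase ring, had the highest excess, 2.89 on average. In CD27 cells it read 7.61, 7.82 and 7.89 on the WT arrays, 7.83 and 7.44 on KO replicates 1 and 2, and 10.64 on KO replicate 3. DP cells gave 7.48, 7.61 and 7.73 in WT, then 8.15, 7.63 and 10.79 in KO. For CD11b cells the readings were 7.56, 7.72 and 7.82 in WT, then 7.96, 7.54 and 10.52 in KO. KO replicate 1 was above KO replicate 2 in each subset, KO replicate 2 overlapped or lay just below the WT arrays, and KO replicate 3 stood clear of the other 5 arrays. Mcm2 (2.72), Mcm3 (2.62) and Mcm7 (2.02) followed, and Mcm4 (1.5) and Mcm6 (1.32) of the same ring had about the excess of Cdt1 (1.49), the loader. Cdc6, which works with Cdt1, had 1.80, and the origin binding subunits Orc6 and Orc1 had 1.27 and 1.25.

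Cdc45, which joins the ring to make the active helicase, led the firing genes with an excess of 2.89. Its WT arrays read 6.14, 6.19 and 6.05 in CD27 cells and its KO arrays 6.22, 6.12 and 8.99. The DP values were 6.07, 6.06 and 6.04 in WT and 6.40, 6.18 and 9.35 in KO. CD11b cells gave 6.06, 6.15 and 6.16 in WT and 6.48, 6.03 and 9.04 in KO. WT arrays of a subset lay close together, and KO replicates 1 and 2 overlapped them except in DP cells, where both were higher. Mcm10, which activates the helicase, had an excess of 2.64 and the kinase Cdc7 2.27. The 4 subunits of GINS were unequal, at 2.24 for Gins1, 1.16 for Gins3, 0.88 for Gins2 and 0.36 for Gins4.

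Catalytic subunits of the polymerases had larger excesses than their partners. Pole, the catalytic subunit of the leading strand polymerase, had an excess of 3.33 and its partner Pole2 2.76. Pola1, the catalytic subunit of the priming polymerase, had 2.98, and its partner Pola2 had 0.74. Pola1 read 7.30, 7.39 and 7.20 on the WT arrays of CD27 cells and 6.72, 6.63 and 9.76 on the KO arrays. In DP cells it was at 6.64, 7.05 and 6.96 in WT and 6.93, 6.70 and 9.87 in KO. CD11b arrays showed 6.998, 6.98 and 6.90 in WT and 6.94, 6.68 and 9.61 in KO. In CD27 cells KO replicates 1 and 2 were below every WT array; in DP and CD11b cells they overlapped. The primase subunits Prim1 and Prim2 had 2.86 and 1.84, and Pold1 and Pold2 of the lagging strand polymerase 1.58 and 0.80.

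Pcna, the sliding clamp that holds polymerases on DNA, had a modest excess of 1.26. Its WT arrays read 11.62, 11.997 and 11.73 in CD27 cells against 11.51, 11.71 and 12.79 in KO. In DP cells the values were 11.27, 11.79 and 11.87 in WT and 11.38, 11.70 and 12.99 in KO. In CD11b cells they were 11.30, 11.78 and 12.12 in WT and 11.60, 11.93 and 12.91 in KO. The WT arrays of DP and CD11b cells were spread widely, and KO replicates 1 and 2 fell inside that spread. Of the clamp loader, Rfc4 had 2.38, Rfc3 1.68, Rfc5 1.65, Rfc2 0.64 and Rfc1 0.58. A second Pcna probe set gave an excess of 1.17, 1.45 and 1.16 in CD27, DP and CD11b cells, where the one used gave 1.18, 1.45 and 1.15. Second probe sets of the other 3 genes with several were less close. Rpa3 gave 0.69, 0.835 and 0.38 against 1.29, 0.52 and 0.545. Tk1 gave 2.34, 1.65 and 1.68 against 2.06, 2.40 and 2.23, and Slbp 0.80, 0.76 and 0.93 against 0.65, 0.78 and 0.70.

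The 3 subunits of the single-strand binding complex had low excesses, with 0.26 for Rpa1, 0.34 for Rpa2 and 0.79 for Rpa3. Rpa2 read 8.14, 8.17 and 8.59 on the WT arrays of CD27 cells and 8.47, 8.40 and 8.83 in KO. In DP cells it was at 8.71, 8.36 and 8.74 in WT and 8.56, 8.58 and 8.94 in KO. In CD11b cells it was at 9.09, 8.97 and 9.14 in WT and 8.89, 8.78 and 9.08 in KO. Here KO replicate 3 lay below WT replicate 3 in CD11b cells, and the difference between CD11b and CD27 cells in WT was larger in size than that between genotypes in any subset.

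Fen1, the flap nuclease that trims Okazaki fragments, and Lig1, the ligase that seals them, had excesses of 1.78 and 3.14. Fen1 read 6.30, 6.23 and 6.45 in WT CD27 cells and 6.32, 6.02 and 7.85 in KO. DP arrays gave 6.33, 6.05 and 6.34 in WT and 6.45, 6.25 and 8.31 in KO. CD11b arrays gave 6.68, 6.57 and 6.68 in WT and 6.58, 6.27 and 8.13 in KO. Beside KO replicate 3, KO replicate 1 of DP cells was the one KO array above all WT arrays of its subset.

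Rrm2, the regulated subunit of ribonucleotide reductase that makes deoxynucleotides, had the highest excess of all 48 and also differed on the other KO arrays. In CD27 cells it read 6.18, 6.18 and 5.76 in WT (6.04 ± 0.24, SD, n = 3) and 6.72, 6.501 and 10.43 in KO. In DP cells it read 6.42, 5.87 and 5.91 in WT and 7.41, 6.69 and 10.81 in KO. In CD11b cells it read 6.43, 6.62 and 6.43 in WT and 7.21, 6.89 and 10.47 in KO. Every KO array was above every WT array of its subset, and Rrm2 was the sole gene of the 48 for which that held in all 3 subsets. On KO replicates 1 and 2 alone, 1 of the 48 genes (Rrm2) lay above the WT arrays in all 3 subsets. Of all probe sets 2.08% did, so 1 such gene in 48 is near the array-wide share. Rrm1, the partner of Rrm2, had an excess of 2.45, thymidylate synthase Tyms 2.39, thymidine kinase Tk1 2.23 and the dUTPase Dut 1.60.

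Uhrf1, which carries DNA methylation over to the new strand, had an excess of 3.18. Its WT arrays read 4.89, 5.24 and 5.30 in CD27 cells and its KO arrays 5.23, 5.07 and 8.35. DP cells gave 5.05, 5.09 and 4.95 in WT and 5.63, 5.12 and 8.77 in KO. CD11b cells gave 5.03, 5.14 and 5.02 in WT and 5.68, 5.08 and 8.33 in KO. KO replicate 1 was above the 3 WT arrays in DP and CD11b cells, while KO replicate 2 lay within the WT range in CD27 and CD11b cells and just above it in DP cells. The histone chaperone subunits Chaf1a and Chaf1b had excesses of 2.13 and 2.05 and the histone mRNA binding protein Slbp 0.71.

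E2f1, the activator that drives many of these genes, had an excess of 2.13. In CD27 cells it read 5.52, 5.65 and 5.69 in WT and 5.89, 5.61 and 7.62 in KO. In DP cells it was at 5.75, 5.73 and 5.60 in WT and 6.06, 5.84 and 8.09 in KO. In CD11b cells it was at 5.88, 6.16 and 5.88 in WT and 6.37, 5.98 and 8.54 in KO. KO replicate 1 exceeded all WT arrays in each subset, and KO replicate 2 did so in DP cells. The cyclins that take cells from G1 into S phase had 2.60 (Ccne2) and 1.34 (Ccne1). The 14 genes with an E2F match in a promoter window (the 6 shown and Cdt1, Lig1, Mcm3, Mcm7, Pold1, Pole2, Rfc3 and Uhrf1) had a median excess of 1.91, those without had 1.92 (n = 26), and the 8 genes with no window in the table had 1.67.

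Genes outside the 48 give the excess its setting. All 34 measured mitotic genes were highest on KO replicate 3 in all 3 subsets, with a median excess of 2.49. Of 47 other replication genes 38 were, with a median of 0.95. Of 23 genes that restrain the cell cycle 4 were, with a median of -0.09.

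**Figure D4:**
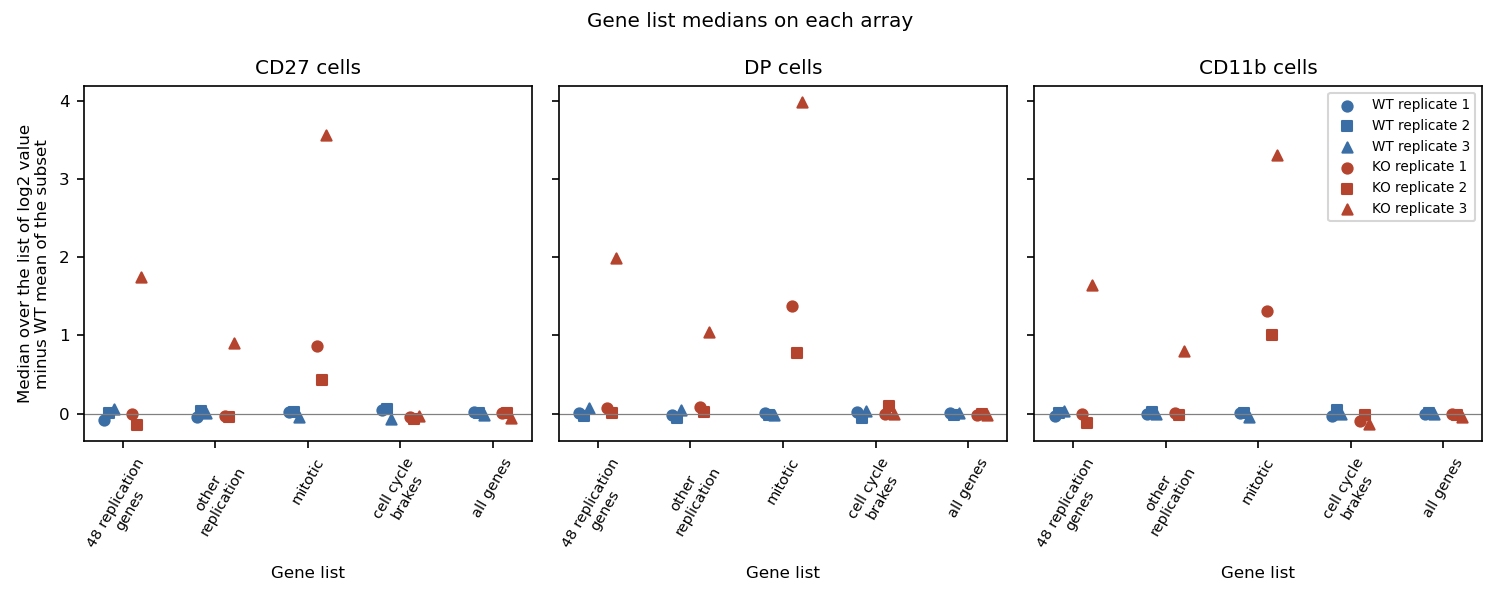
Median over each gene list of log2 value minus the WT mean of the subset, for every array. On KO replicates 1 and 2 the mitotic genes are at 0.42 to 1.37 while the 48 replication genes are at -0.15 to 0.07; on KO replicate 3 both are high, at 3.31 to 3.99 and 1.65 to 1.99.

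The comparison of KO with WT asks which of these genes depend on Runx3. With all arrays, no replication gene passed limma's test in any subset or in the average of the 3, although nearly all were higher in KO. In CD27 cells the median difference was 0.49, with 46 of 48 genes above 0. The DP median was 0.57, with 48 above 0, and the CD11b median was 0.43, with 44 above 0. Averaged over the subsets it was 0.48, with 48 above 0, against medians between -0.02 and -0.01 over all probe sets in these 4 comparisons. Of all probe sets 0.907%, 0.395%, 1.29% and 8.08% passed in these comparisons (p under 0.05 after Benjamini-Hochberg adjustment across the whole array). At an unadjusted p under 0.05 limma gave 0, 0, 0 and 11 of the 48. Counts at an unadjusted p are given here and below without the share of all probe sets at that threshold. They are therefore not read as results about the 48 genes. The spread within the KO groups was far larger than that within WT: the median SD of the 48 genes was 1.10, 1.11 and 1.03 in KO CD27, DP and CD11b cells and 0.13, 0.13 and 0.10 in WT, where all probe sets had 0.09 to 0.14 in any group. Rrm2 came closest in the average, at a difference of 1.92 (SE 0.66, 3.80-fold, limma adjusted p 0.093), followed by Ccne2 at 1.19 (SE 0.47, 2.29-fold, limma adjusted p 0.15). In single subsets the smallest limma p-values belonged to Rpa1 (0.18) and Gins2 (0.53) in CD27 cells, Gins4 (0.28) and Rrm2 (2.23) in DP cells, and Ccne2 (1.29) and E2f1 (0.99) in CD11b cells, the log2 difference in parentheses, with limma adjusted p of 0.53 to 0.59. With a fixed block for the replicate number, Pold2, Pole, Rfc4 and Rrm2 passed in the average, where 10.8% of probe sets did; without the 3 arrays of KO replicate 2, Gins2, Pole, Rrm2 and Ccne2 did (background 10.7%), all higher in KO. With the Xist class of the array (high or low) as a term, 25 of the 48 passed in the average, all higher in KO (background 12.4%), and none in a single subset, where 20, 33 and 20 had an unadjusted p under 0.05 by limma in CD27, DP and CD11b cells. Among the KO samples KO replicate 3 alone is Xist-high, so within KO that term cannot be told apart from the excess of this replicate. These 25 calls are therefore not shown to be a genotype difference freed of Xist class. In that fit Rrm2 differed by 2.501 (limma adjusted p 0.0097) and Ccne2 by 1.62 (0.013).

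Without KO replicate 3 the picture was small and mixed. The median over the 48 genes was -0.09 in CD27 cells, 0.03 in DP cells and -0.06 in CD11b cells, where the medians over all probe sets were between -0.02 and 0.01. Pola1 fell in CD27 cells, from 7.30 to 6.68 (difference -0.62, SE 0.13, 1.54-fold, limma adjusted p 0.038), and it was the sole gene to pass there; 1.29% of all probe sets passed and 0.751% were lower. With all arrays its difference there was 0.41, higher in KO. That call ended when any 1 further WT replicate was left out, and a fit without a further KO replicate rests on 1 KO array. All KO arrays that remain are Xist-low, while WT replicates 2 and 3 are Xist-high, so Xist class and genotype are unbalanced in this comparison. With Xist class as a term, which then rests on WT replicate 1 against the other WT arrays, the difference of Pola1, an X-linked gene, was -0.55 (limma adjusted p 0.13), and Tyms was the gene that passed in CD27 cells, lower in KO (background 0.766%). No gene passed in DP or CD11b cells, where 0.557% and 1.36% of probe sets did; limma gave 7 and 10 of 48 at an unadjusted p under 0.05. Rfc4 of the clamp loader (0.58) and Rrm2 (0.98) had the smallest p in DP cells, with limma adjusted p of 0.084 and 0.10. For CD11b cells they were Chaf1b (-0.41) and Ccne2 (0.54), with limma adjusted p of 0.080 and 0.081. On KO replicates 1 and 2, 4 genes lay above all WT arrays and 15 below them in CD27 cells, where 13.5% and 16.1% of all probe sets did. In DP cells there were 9 above and 5 below (background 10.7% and 13%), and in CD11b cells 8 and 13 (background 14% and 15%).

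Averaged over the subsets and without KO replicate 3, 9 of the 48 genes passed: 7 fell and 2 rose, where 6.31% of all probe sets passed, 3.57% lower and 2.74% higher. The median over the 48 was -0.03. With all arrays the 7 genes that fell here were higher in KO, by 0.04 (Cdt1) to 0.72 (Pola1), so that their direction rests on leaving out KO replicate 3; Rrm2 and Ccne2 were higher in both. None of the 9 calls held with Xist class as a term (limma adjusted p 0.12 to 0.45), and their signs stayed; Tyms was the sole gene to pass, lower in KO (background 2.62%). Cdt1, the licensing factor that loads the ring, fell most, by 0.46 (SE 0.10, 1.38-fold, limma adjusted p 0.017). In CD27 cells the WT arrays read 7.75, 8.23 and 8.13, and KO replicates 1 and 2 read 7.74 and 7.69. For DP cells the values were 7.91, 8.11 and 8.29 against 7.67 and 7.77, and for CD11b cells 8.04, 8.37 and 8.42 against 7.42 and 7.79. These 6 KO arrays were all below the WT arrays of their subset, narrowly so in CD27 cells. KO replicate 3, in contrast, read 9.04, 9.27 and 9.20.

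The other genes that fell were Mcm2 (-0.28), Pola1 (-0.28) and Mcm4 (-0.26), then Dut, which keeps uracil out of DNA (-0.24), Chaf1b (-0.23) and Pold1 (-0.19), with limma adjusted p from 0.021 to 0.048. Dut read 7.34, 7.62 and 7.55 on the WT arrays of CD27 cells and 7.13 and 7.30 on KO replicates 1 and 2. For DP cells it was at 7.28, 7.18 and 7.13 against 6.92 and 7.05, and for CD11b cells at 7.29, 7.24 and 7.12 against 6.96 and 6.98. Both KO arrays were below the WT arrays in all 3 subsets. Cdt1, Dut, Pold1 and the GINS subunit Gins3 were the 4 genes for which that held, against 2.40% of all probe sets; Gins3 did not pass the test.

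Rrm2 and Ccne2 rose. The average difference of Rrm2 was 0.70 (SE 0.13, 1.63-fold, limma adjusted p 0.0081). Ccne2, the cyclin that partners Cdk2 at the start of S phase, differed by 0.33 (SE 0.08, 1.26-fold, limma adjusted p 0.025). In DP cells Ccne2 read 6.81, 6.72 and 6.82 in WT and 7.30 and 7.17 on KO replicates 1 and 2. In CD11b cells it read 6.73, 6.496 and 6.77 in WT against 7.40 and 7.01. In CD27 cells, with 6.89, 7.02 and 6.77 against 7.03 and 6.73, the groups overlapped.

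**Figure D5:**
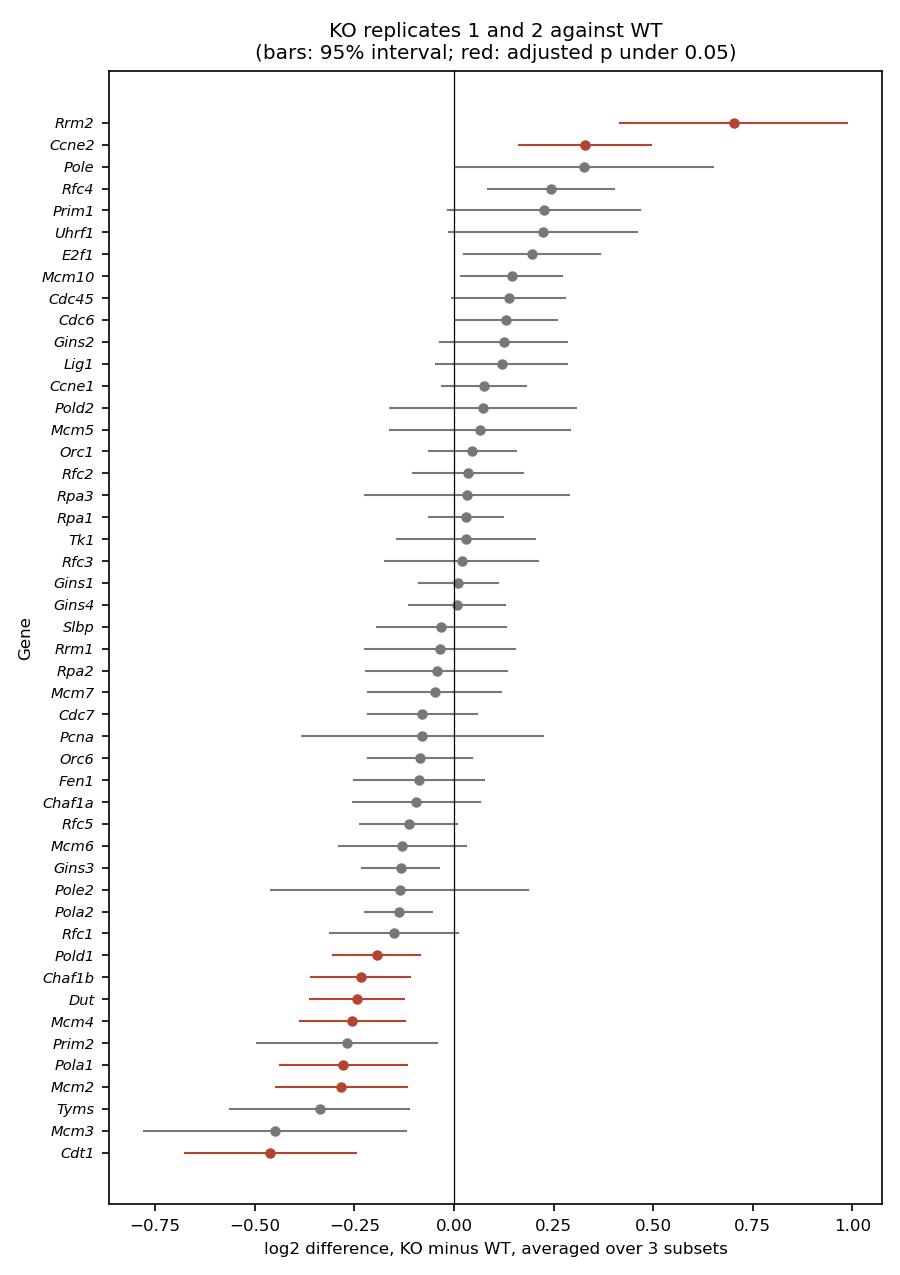
Difference of KO replicates 1 and 2 from WT averaged over the 3 subsets (log2, points) with its 95% interval (bars) for each of the 48 genes, ordered by the difference. The 9 genes that passed lie between -0.46 (Cdt1) and 0.70 (Rrm2), and the median of all 48 is -0.03.

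These 9 calls rest on which samples are present. When the 3 arrays of a sample were averaged before the fit, so that 3 WT samples met 2 KO samples, none passed, where 0.212% of probe sets did, with limma adjusted p of 0.18 to 0.33, and all 9 kept their sign. With genotype and number as a random block, 6 passed (Cdt1, Mcm4, Rrm2, Dut, Chaf1b and Ccne2; background 4.58%). Leaving out WT replicate 1 as well left 5 calls, WT replicate 2 left 2 (Rrm2 and Chaf1b), and WT replicate 3 or KO replicate 1 left none of the 9, with Tyms or Mcm6 passing in their place; the backgrounds were 5.68%, 3.32%, 3.71% and 2.18%. Without KO replicate 2, 7 genes passed and all rose (Cdc45, Pole, Rfc4, Rrm2, Uhrf1, Ccne2 and E2f1), 2 of them among the 9, where 4.46% of probe sets passed. KO replicate 1 was above KO replicate 2 for 42 of the 48 genes in CD27 cells, 35 in DP cells and 37 in CD11b cells, where 48.9%, 45.5% and 52% of all probe sets were. The difference of these 2 replicates thus ran through most of the genes, at a median of 0.13 to 0.16 log2. On the CD11b array of KO replicate 1, 3 of 11 dendritic cell markers, 1 of 13 macrophage markers (Lyz2, at 7.96) and 1 of 7 erythroid markers were over 1 log2 above WT. On its CD27 array 1 of 11 T cell markers was, while the T cell list as a whole averaged -0.44 against the WT mean. The part of these markers in the difference was not tested.

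Genes that act after replication behaved differently on KO replicates 1 and 2. Of 34 mitotic genes 9 rose in CD27 cells, 16 in DP cells and 26 in CD11b cells, none fell, and the medians were 0.70, 1.13 and 1.15. In the average 33 rose, with a median of 0.96, and 29 did with Xist class as a term; with the 3 arrays of a sample averaged first, 5 did. The largest rises in the average were those of the mitotic cyclin Ccnb2 (5.0-fold), the spindle midzone protein Prc1 (3.77-fold), the kinetochore motor Cenpe (3.76-fold) and the proliferation marker Mki67 (2.95-fold), with limma adjusted p of 8.7e-04 or less. Prc1 read 6.37, 6.29 and 6.60 in WT CD27 cells against 8.38 and 8.22 on KO replicates 1 and 2, and 9.64 on KO replicate 3. With all arrays, 2, 1, 1 and 23 of the 34 mitotic genes rose in CD27, DP and CD11b cells and the average, Prc1 in each.

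Of 47 other replication genes, without KO replicate 3, 8 rose and 2 fell in the average, with a median of 0.00; with Xist class as a term 4 rose and 0 fell, and with all arrays 2 rose, Ccna2 and Cdk2. Ccna2, the cyclin of S phase and G2, rose most, 5.83-fold (limma adjusted p 1.7e-05), and read 5.92, 6.57 and 5.95 in WT CD27 cells against 8.80 and 7.65. E2f8, an E2F repressor made late in S phase, rose 1.85-fold, the cohesin acetyltransferase Esco2 1.75-fold and the kinase Cdk2 1.39-fold. The genes that fell were Hells (1.29-fold), a chromatin remodeller, and Topbp1 (1.21-fold), which acts in origin firing and checkpoint signalling. Single subsets gave Ccna2 up in all 3, Esco2 up in CD11b cells, and Hells and Topbp1 down in CD27 cells. Among 23 cell cycle brakes the repressor E2f5 fell 1.5-fold, the antiproliferative gene Btg1 1.32-fold and the forkhead factor Foxo1 1.2-fold, while Foxo3 rose 1.29-fold. With all arrays E2f5, Btg1 and Foxo1 fell and Foxo3 did not pass. E2f5 was below WT on KO replicate 3 as on the others, at 6.91 in CD27 cells against 7.48, 7.64 and 7.38 in WT.

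The subsets mark maturation, and the median of the 48 replication genes moved little along it in WT, while single genes went either way. From CD27 to DP cells the median difference was -0.07, from DP to CD11b cells 0.08 and from CD27 to CD11b cells -0.02, against 0.02, 0.00 and 0.02 over all probe sets. In the first and second step none of the 48 passed limma's test with all arrays, where 0.557% and 0.525% of probe sets did; at an unadjusted p under 0.05 there were 0 and 1. Without KO replicate 3, whose arrays enter these fits only through the shared spread, none passed either (background 0.876% and 0.898%), with 8 and 9 at an unadjusted p under 0.05. Rpa2 (0.31) and Rpa1 (0.16) had the smallest p from CD27 to DP cells with all arrays, and Pola1 (-0.42) and Pola2 (-0.22) without KO replicate 3. From DP to CD11b cells they were Rpa2 (0.46) and Rpa1 (0.18), and Rfc3 (0.61) and Rpa2 without KO replicate 3.

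Rpa2 was higher in WT CD11b cells than in WT CD27 cells by 0.77 (SE 0.15, 1.70-fold, limma adjusted p 0.0090). With all arrays it was the sole gene of the 48 to pass, where 5% of all probe sets did (2.88% higher). That fit shares 1 spread over the 6 groups, and the median SD of the 48 genes was 1.03 to 1.11 in KO. In WT it was 0.10 to 0.13. Rpa1 and Rpa2 had the lowest excesses on KO replicate 3 (0.26 and 0.34). The sole call, and their smallest p in the steps above, therefore do not set them apart from the other genes in WT. The WT CD11b and CD27 arrays of Rpa2 did not overlap, with 8.97 to 9.14 against 8.14 to 8.59. The call ended without the arrays of WT replicate 1 (limma adjusted p 0.13) or WT replicate 2 (0.075). Without KO replicate 3, 3 genes rose and 1 fell, where 7.42% of probe sets passed, 4.37% higher and 3.05% lower. These were Rpa2, Rfc3 of the clamp loader at 0.65 (limma adjusted p 0.013), Rpa1 at 0.34 (0.0092) and Pola2 at -0.23 (0.037). Leaving out WT replicate 1 as well ended all 4 calls and left Dut, WT replicate 2 left Rpa2, and WT replicate 3 left Rfc3 and Rpa2. The WT arrays of Rfc3 read 7.29, 7.14 and 6.84 for CD11b cells, against 6.29, 6.44 and 6.59 for CD27 cells and 6.67, 6.22 and 6.56 for DP cells. Of the other replication genes, the activator E2f2 rose 3.35-fold between these subsets (limma adjusted p 0.026 with all arrays). T cell markers averaged 7.76 to 8.14 on the WT CD27 arrays and 6.58 to 6.72 on the WT CD11b arrays. Of that list Cd3e (-4.43), Cd3d (-3.99), Cd3g (-2.22) and Cd28 (-1.35) passed limma's test between these subsets with all arrays. Cd4, Cd8a, Cd8b1, Cd5, Cd6, Themis and Lat did not, with differences from -0.05 (Cd4) to -0.61 (Lat). The part of these markers was not tested.

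With the replicate number as a block within each genotype, which the pairing of the arrays bears out for these subsets, 7 genes passed between WT CD11b and CD27 cells, where 10.9% of probe sets did; without KO replicate 3 there were 8 (background 10.5%). With all arrays Rfc3, Rpa1, Rpa2 and Fen1 rose and Pola1, Lig1 and Tk1 fell. Without KO replicate 3 Pola1 did not pass, while Pola2 and E2f1 did. From DP to CD11b cells in WT, Rpa2 (0.46, limma adjusted p 0.019) and Fen1 (0.40, 0.016) rose with that block and all arrays. There 2.4% of probe sets passed (2.07% without KO replicate 3, with the same 2 genes). Fen1, as printed above, was at 6.57 to 6.68 in WT CD11b cells and at 6.05 to 6.45 in the other 2 WT subsets.

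In KO the median difference between CD11b and CD27 cells was 0.03, and 0.09 without KO replicate 3. None of the 48 passed limma's test, where 2.07% of probe sets did with all arrays and 1.72% without KO replicate 3; 1 and 8 had an unadjusted p under 0.05. Rpa2 differed by 0.35 (SE 0.15, limma adjusted p 0.35) and Rpa1 by 0.17; without KO replicate 3 the smallest p belonged to Chaf1b (-0.40) and Ccne1 (-0.32). With the replicate block within genotype 4 genes passed, where 6.17% of probe sets did: Rpa2 (0.35, limma adjusted p 0.037), Chaf1a (0.39) and E2f1 (0.59) rose and Chaf1b fell (-0.35). E2f1 on KO replicate 3 was at 7.62 in CD27 cells and 8.54 in CD11b cells, and without that replicate Chaf1b alone passed (background 3.36%).

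Whether the genotype difference itself changed from CD27 to CD11b cells was tested as an interaction, and none of the 48 passed, with or without KO replicate 3. The background was 0.0367% of all probe sets with all arrays and 0.0226% without; limma gave 0 and 6 of 48 at an unadjusted p under 0.05. Rpa2 (-0.42) and Rpa3 (-0.64) had the smallest p with all arrays, at limma adjusted p of 0.89 and 0.97. Without KO replicate 3 they were Ccne2 (0.55) and Pola1 (0.47), at 0.62 and 0.65. For Pola1 the unadjusted 95% interval of that change was 0.08 to 0.86, and since it did not pass after adjustment, its fall in CD27 cells is not shown to differ from its difference in CD11b cells.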

How the data were processed

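The authors processed the arrays with Partek and RMA, per the submitters' processing notes; versions are not given in the sources used here. The deposited values are log2 expression values (3.91 to 14.96), made from cDNA labelled with an Affymetrix WT-cDNA kit, per the labels, and were used as they stand. Of 35399 probe sets, 1621 with several symbols and 11989 without a listed one were tested but not named. In limma 3.58.1 (R 4.3.3) each of the 6 groups had its own mean, fitted on all 18 arrays (12 residual and 2.18 prior degrees of freedom) or without KO replicate 3 (9 and 2.37), with eBayes; p-values are two-sided. An exact permutation of 3 against 3 arrays cannot give p under 0.1. The fit was tested on simulated data with independent noise of the WT spread. That simulation held no replicate like KO replicate 3 and no correlation of same-numbered arrays, so it does not cover these features. Members and lists were chosen with earlier results of these data known. Values on every array are given for 1 gene of each role; named genes are the members that pass a comparison, or the 2 with the smallest p where none does, and up to 4 of each other list.

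Deviations of same-numbered arrays from their group means correlated in every pair within KO (r 0.213 to 0.642) and between WT CD11b and the other WT subsets (0.218 to 0.456), but not in every pair of WT CD27 with DP arrays (-0.0094 to 0.44) or of WT with KO arrays (-0.073 to 0.344). Alternatives were cyclic loess, a filter on low values, an intensity trend with robust prior, array weights, a fit of the compared groups alone, replicate blocks and each array left out. Chosen after the data were seen were the block within genotype, averaging a sample's arrays, leaving out further replicates and Xist class as a term. Motifs were counted in RefSeq promoters (GRCm38.p6).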

Additional observations from a re-analysis of the deposited data

How the results depend on the processing

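Counts are members of the 48 that passed limma's test. Where the text gives no share of all probe sets for a setting, its count cannot be set against the array as a whole. Cyclic loess, the filter on low values, the intensity trend and each single array left out moved no count by over 1.5 times, and no named difference changed sign under an alternative run within its own set of arrays (all 18, or those without KO replicate 3). Leaving out KO replicate 3 itself turned the sign of the 7 averaged genes that then fell (Cdt1 from 0.04 to -0.46, Pola1 from 0.72 to -0.28) and of Pola1 in CD27 cells (0.41 to -0.62). KO against WT in the average had 0 calls with all arrays, 9 without KO replicate 3, 4 with a fixed replicate block, 4 without KO replicate 2 and 25 with Xist class as a term. Without KO replicate 3 and with a random replicate block there were 6. Leaving out in addition WT replicate 1, 2 or 3 gave 5, 2 and 1, and Xist class as a term gave 1, none of the 9. Fits without KO replicate 3 and a further KO replicate rest on 1 KO sample, so their counts of KO against WT are not given. In CD27 cells the count was 1 without KO replicate 3, with or without the random block, and 1 other gene (Tyms) with Xist class as a term. In CD11b cells it was 0, and 1 without KO replicate 3 and WT replicate 1 (Cdt1). WT CD11b against CD27 cells had 1 call with all arrays, 4 without KO replicate 3, 4 with the groups compared alone, 2 with array weights, 2 with the fixed block, 2 with the random block and 7 with the block within genotype. That count was 0 without WT replicate 1 and 0 without WT replicate 2. Without KO replicate 3 it was 5 with the random block, 8 with the block within genotype, 2 without WT replicate 3, and 4 without KO replicate 1 or 2. WT CD11b against DP cells had 1 with the fixed block and 2 with the block within genotype, also without KO replicate 3. CD11b against CD27 cells in KO had 1 with the fixed block, 4 with the block within genotype and 1 with it without KO replicate 3. The causes of these changes were not tested. Replicate blocks changed no other count. Averages over the subsets treat the 3 arrays of a sample as separate, though their correlation within a genotype was 0.206 with all arrays and 0.103 without KO replicate 3.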
